A study of Mus musculus with 6 samples.

Results

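The immediate early genes Fos, Fosb, Fosl2, Jun, Junb, Jund, Atf3, Egr1, Klf6 and Ier2 were followed in RNA sequencing data of mouse lenses at E13.5, an embryonic stage at which the fibres that fill the lens are forming. They were taken by name from the deposited tables, in which all 10 were found among 41128 listed features. The series compared 3 libraries of Prox1 conditional knockout (Prox1 cKO) lenses, genotype Prox1 f/f with the MLR10Cre transgene, with 3 libraries of wild type lenses. The strain label of both groups is C57Bl/6, and the series design names the wild type as C57Bl/6 <har>. Each library was made from a pool of 30 lenses and is labelled a biological replicate. The MLR10 transgene drives Cre recombinase in epithelial and fibre cells of the lens. The groups hold no library with the transgene alone or with floxed alleles alone, so loss of Prox1 and effects of Cre or of genetic background cannot be told apart. The labels do not say whether pools shared litters, and the p-values measure no more than the spread from pool to pool.

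Immediate early genes are transcribed within minutes of a growth factor, stress or other stimulus, from factors already present in the cell and without new protein synthesis. Fos and Jun family proteins and Atf3 pair through leucine zippers to form the AP-1 group of transcription factors, Egr1 and Klf6 are zinc finger factors, and Ier2 encodes a small nuclear protein. Growth factor signals reach Fos and Egr1 through ERK kinases and the serum response factor, and in the lens the fibroblast growth factors that drive fibre differentiation use the same kinases. Their transcripts are short-lived, and the procedures of tissue dissection are also known to induce them.

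The libraries differed in depth and in the share of crystallin counts. Totals were between 9082219 and 28391662 counts in the Prox1 cKO and between 20731491 and 21061582 counts in the wild type. Crystallin genes took 2.83% to 3.14% of the counts in the Prox1 cKO and 13.2% to 22.7% in the wild type. The lowest wild type share was that of library 1. Prox1, the targeted gene, fell 1.62-fold in the Prox1 cKO (edgeR quasi-likelihood test, adjusted p 0.0074), with levels of 651, 728 and 707 CPM against 922, 1215 and 1246 CPM in the wild type. Levels in CPM are library-scaled counts (TMM factors of edgeR), given in the order of libraries 1, 2 and 3. In these whole lenses, fewer cells of a type and less RNA per cell cannot be told apart.

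Promoters are shown for the member with the largest increase (Fosl2), the member that fell (Klf6) and the founding AP-1 genes Fos and Jun. Each is the 250 bases before the transcription start in RefSeq, assembly GRCm38.p6, read 5′ to 3′ on the gene's own strand: chr5:32136222-32136471 (plus strand), chr13:5861239-5861488 (plus), chr12:85473640-85473889 (plus) and chr4:95052223-95052472 (minus). RefSeq promoters were matched for 8 of the 10 members, all but Egr1 and Ier2. The windows of Fosl2 and Atf3 lie inside the gene as GENCODE annotates it and that of Jund ends upstream of the GENCODE start, so these windows are those of the RefSeq start only. Motifs were searched on both strands, and the 4 named next are in capitals. TATAAA is the TATA box. The core of a cyclic AMP response element is TGACG. A Jun and ATF site known from the Jun promoter is TGACATCA. The EGR site searched was GCGGGGGCG.
Fosl2: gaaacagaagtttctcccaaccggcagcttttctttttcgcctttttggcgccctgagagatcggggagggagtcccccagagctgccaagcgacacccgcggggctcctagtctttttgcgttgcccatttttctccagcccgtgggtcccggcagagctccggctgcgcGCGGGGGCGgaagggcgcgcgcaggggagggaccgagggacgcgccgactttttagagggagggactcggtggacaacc
Klf6: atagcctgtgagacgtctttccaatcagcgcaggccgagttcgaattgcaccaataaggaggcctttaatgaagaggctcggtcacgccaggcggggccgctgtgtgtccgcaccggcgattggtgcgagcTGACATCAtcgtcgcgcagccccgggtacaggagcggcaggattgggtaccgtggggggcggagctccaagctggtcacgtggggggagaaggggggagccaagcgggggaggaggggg
Fos: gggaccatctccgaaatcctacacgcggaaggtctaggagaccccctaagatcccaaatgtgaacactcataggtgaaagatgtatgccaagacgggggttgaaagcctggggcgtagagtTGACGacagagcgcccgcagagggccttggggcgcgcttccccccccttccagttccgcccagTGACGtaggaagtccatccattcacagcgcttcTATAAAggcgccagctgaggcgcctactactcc
Jun: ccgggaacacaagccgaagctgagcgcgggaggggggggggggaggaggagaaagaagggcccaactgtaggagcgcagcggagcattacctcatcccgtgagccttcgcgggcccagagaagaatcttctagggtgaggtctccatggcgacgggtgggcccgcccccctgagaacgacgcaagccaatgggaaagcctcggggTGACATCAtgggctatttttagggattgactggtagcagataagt

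The Fos window held a TATAAA box, which no other of the 8 member promoters had and which 6.27% of the 10595 promoters of tested genes had. TGACG was present in the promoters of Fos, Fosb, Junb and Atf3 and in 26.5% of those of tested genes. TGACATCA was present in those of Jun and Klf6 and in 1.36% of tested genes. TGACG and TGACATCA were chosen after values or sequences had been seen, and TGACATCA was known from Jun. Their counts among the members are therefore not independent of that choice. GCGGGGGCG, which overlaps a GC box (GGGCGG) in both windows, was present in those of Fosl2 and Fosb and in 4.91% of tested genes. None of the 8 windows held a CArG box, the binding sequence of serum response factor, or the full cyclic AMP response element TGACGTCA, or the AP-1 site TGACTCA. These were present in 1.12%, 2.75% and 2.9% of the promoters of tested genes, in that order. These windows are 250 bases long, and the serum response element known for Fos lies further upstream. GC boxes, in 6 of the 8 windows and 59.5% of tested genes, and CCAAT boxes, in 3 of the 8 windows and 36% of tested genes, were also searched and are left in lower case. The matches are descriptions of sequence only.

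The choice of genes did not use gene structure. In the GENCODE M21 annotation of the same build, the longest coding transcript had a median of 3 exons for the 10 members and 9 for 13572 other tested genes. Jun, Junb, Jund and Ier2 had 1 exon, as did 2.34% of the other tested genes. The median gene spanned 4698.5 bases among members and 26102 among the others, with Atf3 the longest member at 47744 bases. The pentamer ATTTA, the core of AU-rich elements that mark transcripts for decay, had a median density of 2.06 per kb of 3′ untranslated region among members and 1.37 among other tested genes. Fos had the highest density of the members, 4.91 per kb, Fosb had 0.466 per kb and Ier2 had no ATTTA.

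The Prox1 cKO lenses held more Fosl2, Atf3, Ier2, Jund and Jun transcripts and fewer Klf6 transcripts than wild type lenses. Fosl2 had the largest change, 5.58-fold, Atf3 rose 2.66-fold and Ier2 2.02-fold, and Klf6 fell 1.74-fold. Of 9 members tested, 5 rose, 1 fell and 3 (Junb, Egr1 and Fos) did not pass the threshold (not called), and Fosb had too few counts for the test. Of all 14271 genes tested, 32.6% were called, 15.9% higher and 16.8% lower in the Prox1 cKO. Of the members 3 were called with a change of at least 2-fold, against 11.0% of all genes tested. The median log2 change was 0.48 over the tested members and 0.04 over all tested genes. The calls of Jun, Jund and Atf3 depended on single libraries: without wild type library 2 or without wild type library 3 the called members were 3 (Fosl2, Ier2 and Klf6), where 15.5% and 17.0% of all genes were called.

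**Figure D1:**
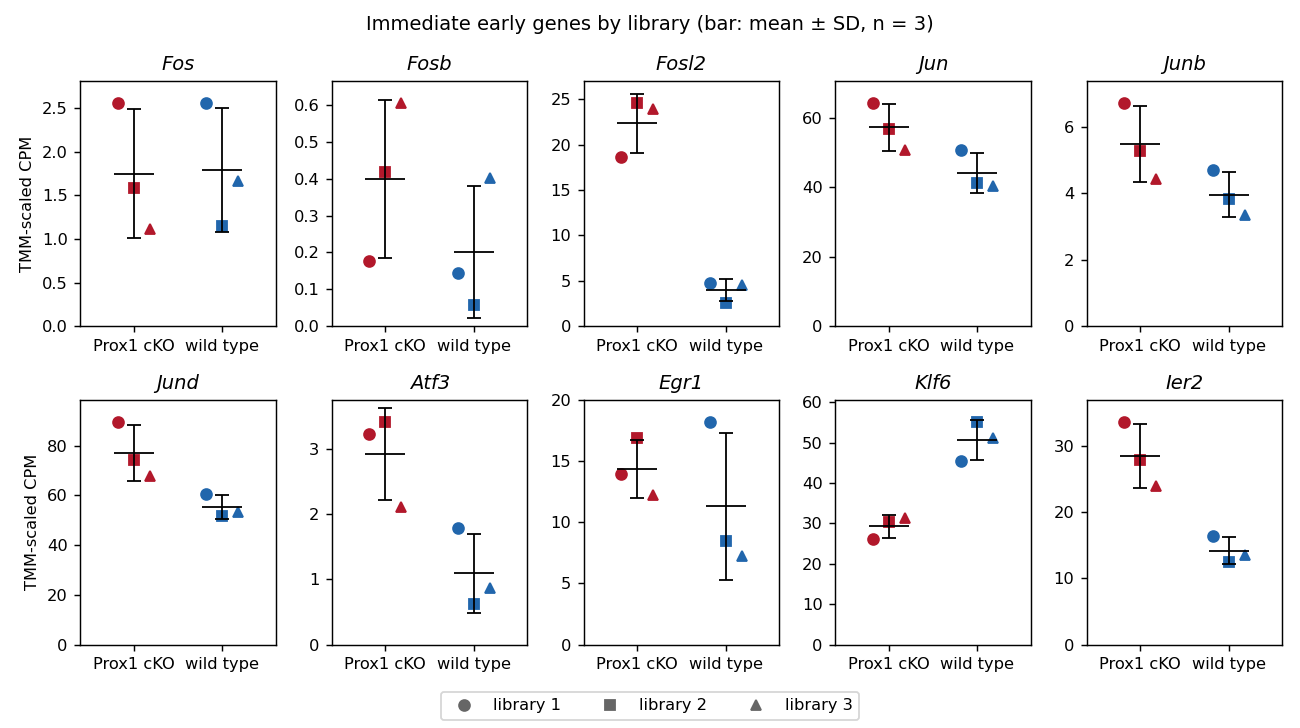
Levels of the 10 genes in TMM-scaled CPM (y axis, from 0, own scale per gene) in 3 Prox1 cKO and 3 wild type libraries; symbols mark libraries and the bars give mean ± SD. Fosl2 lies between 18.6 and 24.5 CPM in the Prox1 cKO and between 2.58 and 4.78 CPM in the wild type, while the libraries of the groups overlap for Fos, Fosb, Junb and Egr1.

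Fosl2 encodes Fra-2, a Fos family protein that lacks the strong activation domain of Fos itself (ENSMUSG00000029135, GRCm38 chromosome 5, 32135801 to 32157842, plus strand). It had 18.6, 24.5 and 23.9 CPM in the Prox1 cKO libraries, from 632, 294 and 237 counts. The wild type had 4.78, 2.58 and 4.55 CPM, from 99, 45 and 79 counts. All Prox1 cKO libraries lay above all wild type libraries, which was the case for 24.4% of all tested genes. Mean levels were 22.3 ± 3.28 CPM in Prox1 cKO and 3.97 ± 1.21 CPM in wild type lenses (SD, n = 3 each), a log2 change of 2.48 (SE 0.241, edgeR adjusted p 0.000264). Leaving out any 1 library gave log2 changes between 2.22 and 2.60, and Fosl2 was called each time.

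Fos, the prototype of the family (chromosome 12, 85473890 to 85477273), was scarce in both groups. It had 2.56, 1.59 and 1.11 CPM in the Prox1 cKO and 2.56, 1.15 and 1.67 CPM in the wild type. Library 1 was the highest of each group, and the groups overlapped throughout. The log2 change was 0.03 with an SE of 0.395 (edgeR adjusted p 0.959), an error larger than the change. Fosb (chromosome 7, 19302696 to 19310051) had 6, 5 and 6 counts in the Prox1 cKO and 3, 1 and 7 counts in the wild type. These are close to the level of 3 counts that a count of 0 allows, and a difference was not detectable at this depth.

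Shares within the Fos family do not depend on how libraries are scaled, and they are given as a description with no test. Per length (deposited RPKM), Fosl2 made up 62.9%, 72.2% and 67.9% of the summed level of Fos, Fosb, Fosl1 and Fosl2 in the Prox1 cKO libraries. In the wild type libraries it made up 28.9%, 26.2% and 30.6%, below every Prox1 cKO library. Fos made up 13.7 ± 7.08% in Prox1 cKO and 31.8 ± 5.86% in wild type lenses (SD, n = 3 each). Fosl1, which encodes Fra-1 and is not a member of the 10, made up 16.9 ± 4.11% in Prox1 cKO and 37.4 ± 6.42% in wild type lenses. Its own change was not called (log2 0.12, SE 0.311, edgeR adjusted p 0.785), and its sign turned without Prox1 cKO library 3 (log2 -0.13). The ratio of Fosl2 to Fos RPKM was 2.92, 6.22 and 8.65 in the Prox1 cKO and 0.75, 0.904 and 1.09 in the wild type.

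**Figure D2:**
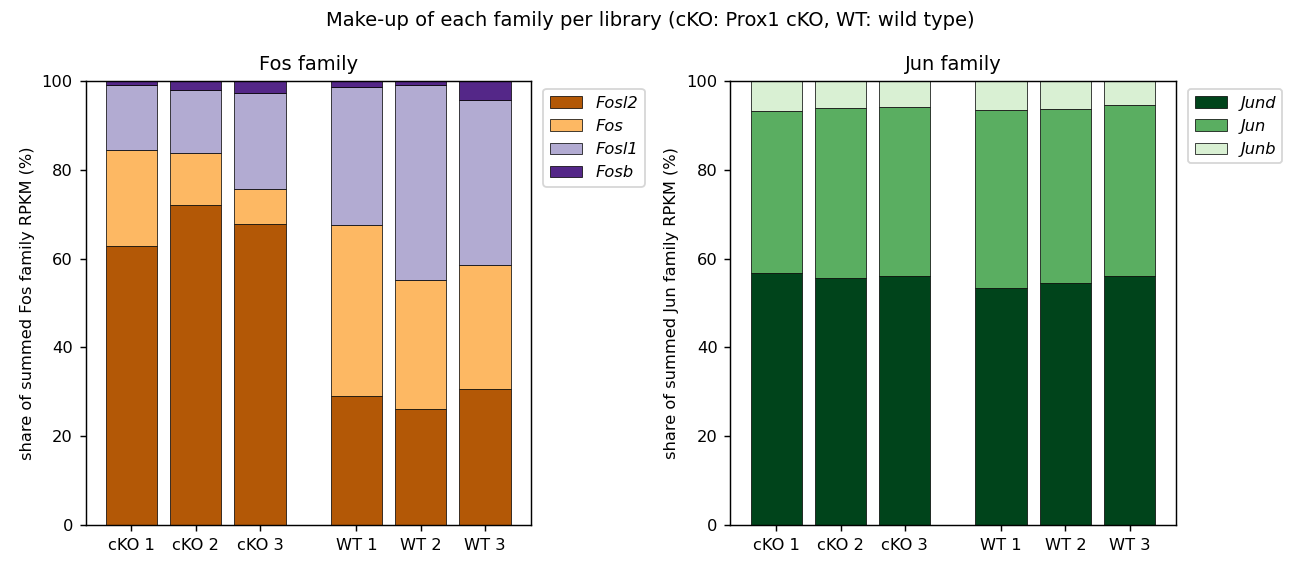
Share of each gene in the summed RPKM of its family (y axis, percent) in each Prox1 cKO (cKO) and wild type (WT) library, for the Fos family (left) and the Jun family (right). Fosl2 takes between 62.9% and 72.2% in the Prox1 cKO and between 26.2% and 30.6% in the wild type, and Jund takes between 53.4% and 56.7% of the Jun family over all 6 libraries.

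The Jun family, the usual partners of Fos proteins in binding DNA, was more abundant per length than the Fos family in both groups. Jund and Jun rose and Junb was not called. Jund (chromosome 8, 70698949 to 70700616), the Jun gene with the most constant expression in other tissues, had 89.5, 74.1 and 67.6 CPM in the Prox1 cKO and 60.7, 51.8 and 53.3 CPM in the wild type. The groups did not overlap, and the log2 change was 0.48 (SE 0.124, edgeR adjusted p 0.0192). The call was lost without wild type library 2 (adjusted p 0.0945) or 3 (0.0838). In the GENCODE annotation, 52.6% of the 1668 exon bases of Jund are shared with Gm11175 on the opposite strand, which was listed with 0 counts in all libraries. The deposited values use a length of 2878 bases for Jund, so the share of its counted bases is not known. The library kit is not stranded.

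Jun (chromosome 4, 95049034 to 95052222), the founding member, had 64.1, 56.7 and 50.8 CPM in the Prox1 cKO and 50.6, 41.3 and 40.3 CPM in the wild type. Prox1 cKO library 3 and wild type library 1 were nearly level. The log2 change was 0.38 (SE 0.127), and its edgeR adjusted p of 0.0497 lay at the threshold of 0.05. It rose in the fit over all libraries, and the call was lost without Prox1 cKO library 1 (0.13) or 2 (0.106), without wild type library 2 (0.186) or 3 (0.188), and with no filter on low counts (0.0525). Junb (chromosome 8, 84974484 to 84978718), which often opposes Jun, had 6.70, 5.26 and 4.44 CPM in the Prox1 cKO and 4.68, 3.84 and 3.34 CPM in the wild type. Its log2 change of 0.48 (SE 0.229, edgeR adjusted p 0.133) was not called, and the groups overlapped. Of its 2301 GENCODE exon bases 7.52% are shared with Prdx2 on the opposite strand, which had 21259 counts in the Prox1 cKO and 22308 in the wild type. Reads of shared bases cannot be assigned to either gene. The deposited length of Junb is 1840 bases, so whether the shared bases were counted for it is not known. Of the exon bases of Jun 7.28% are shared with Junos, which had 24 counts in the Prox1 cKO and 47 in the wild type.

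Within the Jun family the shares were close in the groups. Jund made up 56.1 ± 0.59% of the summed RPKM of the family in Prox1 cKO and 54.7 ± 1.41% in wild type lenses (SD, n = 3 each). Jun made up 37.7 ± 0.902% in Prox1 cKO and 39.2 ± 0.933% in wild type lenses, and Junb 6.19 ± 0.437% in Prox1 cKO and 6.09 ± 0.51% in wild type lenses. The summed Jun family was 8.60 ± 2.03 times the summed Fos family in the Prox1 cKO and 15.6 ± 3.59 times in the wild type. Fosl2 is part of the Fos family sum, so this ratio and the shares of Fos and Fosl1 are not separate from the change of Fosl2.

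Atf3, a stress-induced factor that pairs with Jun proteins and often represses its targets (chromosome 1, 191170296 to 191218039), was low but higher in the Prox1 cKO. It had 3.23, 3.42 and 2.12 CPM in the Prox1 cKO and 1.79, 0.63 and 0.864 CPM in the wild type. The groups did not overlap, with 110, 41 and 21 counts against 37, 11 and 15. The log2 change was 1.41 (SE 0.399, edgeR adjusted p 0.0281). The call was lost without Prox1 cKO library 1 (0.0717) or 2 (0.0755), and without wild type library 2 (0.103) or 3 (0.10), and the log2 change lay between 1.116 and 1.94 without 1 library.

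Egr1, the zinc finger factor most directly tied to ERK signals (chromosome 18, 34859823 to 34864984), overlapped between the groups through a single library. It had 14.0, 16.9 and 12.2 CPM in the Prox1 cKO and 18.2, 8.48 and 7.20 CPM in the wild type. Wild type library 1 was above every Prox1 cKO library, and the other wild type libraries were below all of them. The log2 change over all libraries was 0.34 (SE 0.328, edgeR adjusted p 0.448). Without wild type library 1 it was 0.83 (edgeR adjusted p 0.0142), where 36.4% of all genes were called. Without wild type library 3 it was 0.08.

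Klf6, a Krüppel-like factor (chromosome 13, 5861482 to 5870394), was the member that moved the other way. It had 26.1, 30.4 and 31.3 CPM in the Prox1 cKO and 45.6, 55.2 and 51.3 CPM in the wild type. All Prox1 cKO libraries were below all wild type libraries, as for 25.7% of all tested genes, and the log2 change was -0.80 (SE 0.116, edgeR adjusted p 0.00167). It was called without any 1 of the libraries, with log2 changes between -0.91 and -0.72. Ier2, whose protein acts in the nucleus (chromosome 8, 84661331 to 84662852), had 33.6, 27.9 and 23.9 CPM in the Prox1 cKO and 16.4, 12.4 and 13.53 CPM in the wild type, with no overlap. Its log2 change was 1.02 (SE 0.164, edgeR adjusted p 0.00268), and it too was called without any 1 of the libraries, with log2 changes between 0.87 and 1.13.

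**Figure D3:**
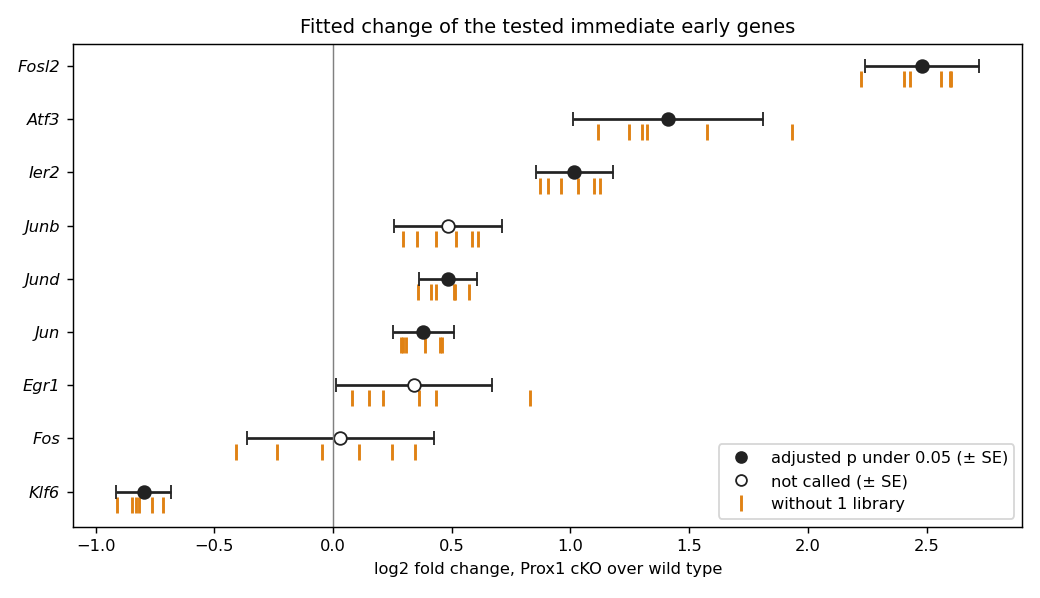
Log2 fold change of Prox1 cKO over wild type (x axis) for the 9 tested members, with the standard error as whiskers; filled points passed the edgeR threshold, and the ticks under each point are the fits without 1 library. Fosl2 stands at 2.48, Klf6 at -0.80, and the ticks of Fos lie on both sides of 0.

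Per length, Jund was the most abundant member in both groups, with 30.4 ± 6.10 RPKM in the Prox1 cKO and 17.1 ± 3.13 RPKM in wild type lenses (SD, n = 3 each). It was the highest member within each library, but its range overlapped that of Ier2 in the Prox1 cKO and that of Jun in the wild type. In the Prox1 cKO Ier2 (21.2 ± 4.74 RPKM) and Jun (20.3 ± 3.42 RPKM) followed with overlapping libraries, then Klf6 (7.81 ± 0.346), Fosl2 (4.29 ± 0.427), Egr1 (3.61 ± 0.589) and Junb (3.38 ± 0.89). In the wild type the order was Jun (12.4 ± 2.82 RPKM), Klf6 (10.6 ± 0.438), Ier2 (8.30 ± 2.02), Egr1 (2.31 ± 1.46) and Junb (1.92 ± 0.515). The libraries of neighbours in this order, Jun with Klf6, Klf6 with Ier2, and Egr1 with Junb, overlapped in the wild type, as did those of Fosl2, Egr1 and Junb in the Prox1 cKO. Fosl2 was eighth among the 10 in the wild type, with 0.607 ± 0.219 RPKM, beside Fos with 0.691 ± 0.341. Atf3 had 1.67 ± 0.439 RPKM in the Prox1 cKO and 0.505 ± 0.333 in the wild type. Fosb was last in both, with 0.118 ± 0.06 RPKM in the Prox1 cKO and 0.0468 ± 0.0392 RPKM in the wild type. RPKM is scaled by library totals, which the crystallins enlarge in the wild type, so it is used here for the order of genes and not for the change between groups.

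Members also differed between libraries of 1 group. Wild type library 1, which had the lowest crystallin share, was the highest of the wild type libraries for 8 of the 10 members and the lowest for 1, Klf6. Of all tested genes, 38.8% were highest of the wild type in that library. Prox1 cKO library 1 was the highest and library 3 the lowest of their group for 5 members, Fos, Jun, Junb, Jund and Ier2. Prox1 cKO library 1 was the lowest of its group for 3, Fosb, Fosl2 and Klf6. Of all tested genes, 36.5% were highest of the Prox1 cKO in library 1. The share lowest in library 3 was not counted. The summed level of the members was 259, 241 and 218 CPM in the Prox1 cKO and 205, 177 and 176 CPM in the wild type. The tested genes outside the 10 whose log2 level followed the mean of the members most closely over the 6 libraries were Slc16a13, Dennd2a, Mecom, Gen1 and Blm. Their Pearson r lay between 0.9965 and 0.998 over 6 libraries, which include both groups. It is a description with no test.

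Other immediate early genes moved in both directions. Of 47 listed genes, 41 were tested, 12 rose, 8 fell and 21 were not called, with a median log2 change of 0.34. The called share was 48.8%, against 32.6% of all tested genes. Gadd45b and Gadd45g, whose proteins act in stress and DNA damage responses, had the largest decreases. Gadd45b had 1.03, 1.42 and 1.92 CPM in the Prox1 cKO and 4.15, 12.3 and 16.7 CPM in the wild type (log2 -2.997, SE 0.517, edgeR adjusted p 0.00368). Gadd45g had 10.8, 8.93 and 9.38 CPM in the Prox1 cKO and 19.4, 39.3 and 44.0 CPM in the wild type (log2 -1.81, SE 0.283, edgeR adjusted p 0.00238). For both genes wild type library 1 was the lowest wild type library, and no library of the groups overlapped. Plk3, a stress-responsive kinase gene, fell by 0.89 and Dusp1, which encodes a phosphatase that switches off MAP kinases, fell by 0.71 on the log2 scale.

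The largest increases among the called genes of this list were those of Ier3 (log2 1.32), Phlda1 (1.17) and Zfp36l1 (1.14), the last encoding a protein that binds AU-rich elements and speeds decay. Phlda1, a gene induced by ERK signals, had 37.8, 34.8 and 21.8 CPM in the Prox1 cKO and 13.47, 14.2 and 14.7 CPM in the wild type (SE 0.195, edgeR adjusted p 0.0032). Sgk1, a kinase gene, rose by 0.91, Btg1, an antiproliferative gene, by 0.85, and Nfkbiz by 0.79. The call of Sgk1 (edgeR adjusted p 0.0468) was lost without any 1 library other than wild type library 1, and that of Nfkbiz (0.0279) without Prox1 cKO library 1, wild type library 2 or wild type library 3. The call of Ier3 was lost without wild type library 2 (0.0545). Without wild type library 2, and also without wild type library 3, 6 of the listed genes rose and 6 fell. The genes Egr2, Egr3, Egr4, Arc, Npas4 and Csrnp1 had too few counts to be tested.

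Of 25 genes for the kinases and factors upstream of immediate early genes, 7 rose, 3 fell and 15 were not called, with a median log2 change of 0.23. The called share of 40% was near the 32.6% of all tested genes. Rps6ka2, which encodes a ribosomal S6 kinase downstream of ERK, fell by 1.197 (SE 0.146, edgeR adjusted p 0.000733), with 59.5, 79.1 and 73.9 CPM in the Prox1 cKO and 135.2, 180.5 and 170.3 CPM in the wild type. Elk3, which encodes a partner of serum response factor, rose by 1.02 (SE 0.186, edgeR adjusted p 0.00469), with 62.2, 70.3 and 76.7 CPM against 45.4, 29.4 and 28.0 CPM. Mapkapk2, a kinase gene of the p38 branch, rose by 0.75, and Rps6ka5 by 0.67 with a call that held only without Prox1 cKO library 2 or wild type library 1 when libraries were left out. Srf itself was chosen after its values were seen and was not called (log2 0.63, SE 0.255, edgeR adjusted p 0.0891).

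Among other partners of AP-1 proteins, 1 of 8 tested genes rose and 1 fell, 25% against 32.6% of all tested genes. Creb5 rose by 2.21 (SE 0.659, edgeR adjusted p 0.0337), with 1.32, 1.67 and 6.46 CPM in the Prox1 cKO and 0.918, 0.515 and 0.461 CPM in the wild type. Prox1 cKO library 3, which also had the highest periocular mesenchyme sum, was far above the others for Creb5, and without it the log2 change was 1.19 and the call was lost (0.0642), as it was without wild type library 2 (0.119) or 3 (0.108). Atf4, the effector of the integrated stress response, fell by 0.69 (SE 0.125, edgeR adjusted p 0.00448), to 135 ± 10.9 CPM in the Prox1 cKO, against 219 ± 30.8 CPM in wild type lenses (SD, n = 3 each). The 6 other tested genes of this list were not called.

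Of 15 tested genes known as AP-1 or EGR targets or as EGR co-repressors, 5 rose, 1 fell and 9 were not called, with a median log2 change of 0.44. Again 40% were called, near the 32.6% of all tested genes. Mmp14, a membrane-bound matrix protease gene, had 139, 145 and 149 CPM in the Prox1 cKO and 62.5, 37.3 and 39.4 CPM in the wild type (log2 1.63, SE 0.186, edgeR adjusted p 0.00054). Spp1, which encodes osteopontin, rose by 2.02, with 11.3, 10.9 and 24.3 CPM against 3.33, 4.07 and 3.97 CPM, and Plat, which encodes tissue plasminogen activator, rose by 1.18. Hmox1, which encodes heme oxygenase, fell by 1.05 to 15.2 ± 0.677 CPM in the Prox1 cKO, against 31.4 ± 7.56 CPM in wild type lenses (SD, n = 3 each).

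**Figure D4:**
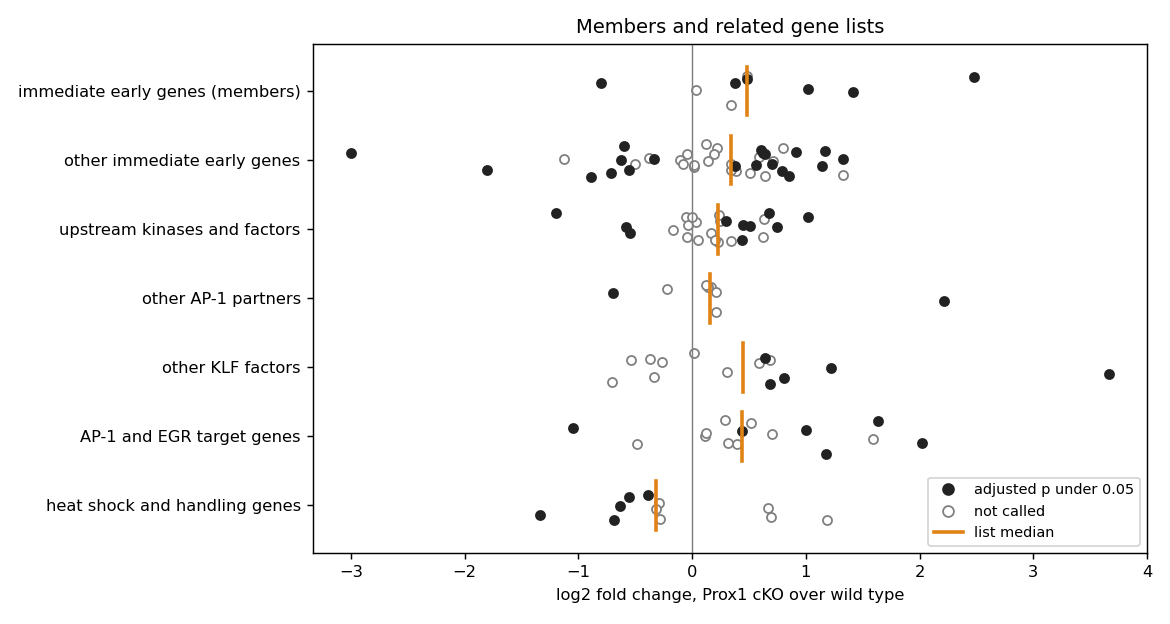
Log2 fold change of Prox1 cKO over wild type (x axis) for each tested gene of the members and of 6 related lists (rows); filled points passed the edgeR threshold and the vertical marks are list medians. The median is 0.48 for the members, 0.34 for other immediate early genes and -0.32 for heat shock genes.

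Markers of tissue around the lens were also higher in the Prox1 cKO, and their part in these results was not tested. Neural retina markers (5 of 8 tested rose) summed to 2181.7, 1956.9 and 1529.9 CPM in the Prox1 cKO and 952, 677 and 702 CPM in the wild type. Library 1 was the highest of each group for the retina sum as for the summed members, and Prox1 cKO library 3 was the lowest for both. Periocular mesenchyme markers (4 of 9 rose, Foxc2 at 0 in all libraries) summed to between 835 and 3617 CPM in the Prox1 cKO and between 329 and 666 CPM in the wild type. In the same order of groups, pigment cell markers (6 of 7 rose, Rpe65 at 0 in 5 libraries) summed to between 268 and 739.5 CPM and between 82.2 and 193 CPM, and surface ectoderm markers (7 of 8 rose) summed to between 50.6 and 140.5 CPM and between 25.3 and 42.3 CPM. Blood vessel (1 of 8 rose) and macrophage markers (0 of 8) lay between 419 and 543 CPM and between 84.2 and 116 CPM in the Prox1 cKO, and between 261 and 477 CPM and between 46.6 and 99.5 CPM in the wild type. Erythroid (3 of 9 rose) and skeletal muscle markers (0 of 7) overlapped between the groups, and 1 of 8 neuron markers fell. Prox1 cKO library 3 had the highest mesenchyme, pigment and ectoderm sums and was the lowest Prox1 cKO library for 7 of the 10 members. The share of all tested genes lowest in that library was not counted. All 13 lens fibre markers fell, and of 8 epithelium markers 5 rose and 2 fell. The epithelium sums were 3180 to 3336 CPM in the Prox1 cKO and 3035 to 3558 CPM in the wild type. Sfrp1, which fell, had the highest mean of the 8, with 833 CPM in the Prox1 cKO and 1856 CPM in the wild type. The sums therefore do not show the change of the 5 that rose.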

How the data were processed

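RNA was extracted from pooled lenses, and polyadenylated RNA was made into libraries with a TruSeq kit that does not mark strand and sequenced as single-end reads of 51 bp, per the labels' protocols. For every feature the authors deposited its raw count with CPM and RPKM values. The deposited CPM equalled the count divided by the library total, within 1e-06, and the RPKM made by the authors is CPM per kilobase of 1 length per feature. The submitters' processing notes name GRCm38 and edgeR; the sources used here do not name the aligner, the counter or the gene models. 26 features whose count and CPM belonged to different near-identical names were left out.

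Counts were tested in R 4.3.3 with edgeR 4.0.16 (filterByExpr with a minimum count of 10, TMM, quasi-likelihood test, no covariate), with Benjamini-Hochberg adjustment over all genes tested and a threshold of 0.05. Standard errors are the log2 change divided by the square root of F. The alternatives were DESeq2 1.42.0, limma-voom (limma 3.58.1), 4 other scalings, 2 other filters, a replicate block and leaving out each library. The test was also run on simulated counts with known changes; the recovery required of it there was lowered slightly after its outcome had been seen. Levels per length used RPKM without a test, so no count model was applied to them. The floor that a count of 0 allows was set at 3 counts, or 0.106 to 0.330 CPM, for counting error only. Members and lists were chosen with earlier results of these data known. The family shares, with Fosl1 added to them in a later step, the transcript features, the promoters printed and the motifs TGACG and TGACATCA were chosen after values or sequences had been seen. Of each list, the called genes of largest change are named, up to 10 of the other immediate early genes and up to 4 of each other list. Lim2, listed as a fibre marker, is split over several names and was not used.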

Additional observations from a re-analysis of the deposited data

How the results depend on the processing

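Scaling by library totals alone moved the median log2 change of all genes by 0.35, so that 5423 genes were higher and 945 lower in the Prox1 cKO, against 2263 and 2396 with TMM. Under it 44.6% of all genes were called, Prox1 missed the threshold (log2 -0.34, adjusted p 0.0532), as did Dusp1, Atf4, Dnaja1, Hspa8 and Hspd1, Junb was called (log2 0.83, edgeR adjusted p 0.0335), Klf6 still fell (log2 -0.44) and of the other immediate early genes 22 rose and 3 fell. The change of Fos, never called, had the opposite sign with DESeq2 (-0.0048) and with the replicate block (-0.0235). It lay between -0.41 and 0.34 without 1 library, and that of Fosl1 between -0.13 and 0.31. Without 1 library the called genes numbered between 2267 and 5317, the called members between 3 and 7 and the called other immediate early genes between 12 and 24. Of the 71 tested genes of the 5 pathway lists, 28 were called with all libraries and between 17 and 32 without 1 library. The lowest of these came without wild type library 2 or 3. Whether replicate numbers 1, 2 and 3 pair the libraries was not settled. Correlations of same-numbered deviations were -0.0276, 0.254 and 0.111, and those of different numbers lay between -0.224 and 0.0878. Deviations from a mean of 3 libraries depend on each other, so these correlations cannot decide it. With the number as a block 4176 genes were called, with 6 members, 21 other immediate early genes and 21 pathway genes. Over the alternatives that kept all libraries, 77 of 81 member results kept their direction and side of the threshold, and of the other named genes 298 of 315. In the fits without 1 library, 40 of 54 member results did so, and of the other named genes 178 of 210. Of the other member results in those fits, 10 lost the call, 3 changed sign and 1 gained the call. Creb5 was not called with limma-voom (adjusted p 0.0855), nor Klf1 with DESeq2 (0.101). Mean levels were higher in the Prox1 cKO for 9 of 10 members with RPKM or deposited CPM and for 8 with TMM. By the fitted change with TMM, 8 of 9 tested members and 7591 of all 14271 tested genes were higher. RPKM and deposited CPM are scaled by library totals, which moved the median of all genes upward by 0.35, so the count of 9 is not particular to the members. Fosb and other genes near 3 counts are limited by depth.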

Other observations

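Other Krüppel-like factor genes were tested beside Klf6. Of 14 tested genes, 5 rose, 0 fell by edgeR and 9 were not called, with a median log2 change of 0.45. The called share of 35.7% was near the 32.6% of all tested genes, and 5 of the genes not called were lower in the Prox1 cKO. Klf5, a factor of epithelial cells, had 1.65, 3.34 and 4.54 CPM in the Prox1 cKO and 0.193, 0.172 and 0.345 CPM in the wild type (log2 3.67, SE 0.511, edgeR adjusted p 0.0014), from 141 counts against 13. Surface ectoderm markers were higher in the same libraries, and their part in this change was not tested. Klf3 rose by 0.81 and Klf11 by 0.68, while Klf1, an erythroid factor, rose by 1.22 from few counts (72 in the Prox1 cKO and 31 in the wild type) with a call that was lost without any 1 library other than wild type library 1. Klf8 was not called by edgeR (log2 -0.54, adjusted p 0.0518) and passed with limma-voom (0.0421) and with RLE scaling (edgeR adjusted p 0.0485).

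Heat shock genes, which tissue handling can also induce, were lower in the Prox1 cKO where they were called. Of 11 tested, 0 rose and 5 fell by edgeR, with a median log2 change of -0.32, and 45.5% were called, against 32.6% of all tested genes. Dnajb1 had 63.5, 65.3 and 43.3 CPM in the Prox1 cKO and 97.9, 160 and 179.9 CPM in the wild type (log2 -1.34, SE 0.236, edgeR adjusted p 0.00404), and Dnaja1, Hspa8 and Hspd1 fell by 0.69, 0.64 and 0.56. With scaling by library totals alone these 3 were not called. The inducible gene Hspa1a was higher but not called (log2 1.19, SE 0.445, edgeR adjusted p 0.0703), at 1.77 CPM in the Prox1 cKO and 0.75 CPM in the wild type. Hspa1b (log2 0.67, edgeR adjusted p 0.139) and Hspb1 (log2 0.70, edgeR adjusted p 0.283) were also higher and not called. The corepressor genes Nab2 and Nab1, which bind EGR proteins and were chosen after their values were seen, rose by 1.00 and 0.44 (edgeR adjusted p 0.0249 and 0.0378). Wild type library 1 was the highest wild type library for both, as it was for Egr1, and each call held in 2 of the 6 fits without 1 library.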
